A study of Mus musculus with 20 samples.

Results

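The 10 genes described here are transcription factors and regulators through which muscle answers FoxO signalling and glucocorticoid hormones: Foxo1, Foxo3, Foxo4, Klf15, Cebpb, Cebpd, Nr3c1, Fkbp5, Tsc22d3 and Zbtb16. They were chosen by gene name, and all 10 were found among the 32285 genes of the table and passed the filter on low values, as 10 of 17948 genes tested. RNA was measured in gastrocnemius muscle of male mice 12 weeks old, at day 7 after surgery. The 4 groups were den and sham muscle of Opg-/- mice, in which the gene for osteoprotegerin (Tnfrsf11b) is knocked out, and den and sham muscle of WT mice (C57BL/6), with 5 libraries in each group. Den muscle came from the right leg, whose sciatic nerve had been cut. Sham muscle came from the left leg, whose nerve had been exposed and left intact, so that the control limb belonged to an operated mouse.

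FoxO factors are forkhead proteins that Akt kinases keep out of the nucleus by phosphorylation. When insulin-like signalling falls they enter the nucleus and switch on genes of proteolysis, including the ubiquitin ligases Fbxo32 and Trim63. Glucocorticoids bind the receptor encoded by Nr3c1, which then binds DNA and induces Fkbp5, Tsc22d3, Zbtb16 and Klf15, and both arms meet in muscle wasting. Which of these genes changed upon denervation, and whether loss of Opg altered that change, are the questions of the comparisons.

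WT sham libraries 1 and 2 differed by less than sampling noise (chi-square per degree of freedom 0.336, against 7.11 to 27.4 in the other 39 pairs within groups) and were averaged and counted as 1 sample, so that n is 4 for WT sham muscle and 5 for the other groups. The libraries held 15186247 to 20102295 assigned reads, and a member rested on 775 to 18045 reads in a library. Tnfrsf11b had 2 to 14 reads in Opg-/- den and 5 to 10 reads in Opg-/- sham libraries, against 2 to 8 reads in WT den and 1 to 5 reads in WT sham libraries, so its level does not check the genotype labels. Skeletal muscle fibre markers were present in every group, and their sum was lower in den muscle, at 922758 to 1257182 in Opg-/- den and 2847283 to 3713157 in Opg-/- sham libraries, and at 973431 to 1301889 in WT den and 2483777 to 3244669 in WT sham libraries.

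Promoter windows of RefSeq (GRCm38.p6, 250 bases before to 50 bases after a start) were available for 6 of the 10 genes, as 8 windows, 3 of them of Tsc22d3. The glucocorticoid receptor half-site AGAACA, searched on both strands, was in 19.0% of 32851 such windows and in 1 of the 8 member windows, that of Tsc22d3. The full response element, in which this half-site is followed after a short spacer by its own reverse complement, was in 3 of all windows and in 0 member windows. The FoxO site GTAAACA (3.65% of windows) and the C/EBP site TTGCNNCAA (2.08%) had no match in the 8 windows. The CCAAT box, read as CCAAT or as ATTGG on the other strand, was in 37.4% of all windows and in 3 member windows. The half-site contains no CCAAT and overlapped none. The windows of Foxo1, Klf15, Fkbp5 and Tsc22d3 are printed because they hold these matches, with the matching letters in capitals and each strand read in the direction of the gene, at chr3:52268087-52268386 (Foxo1, plus strand), chr6:90462326-90462625 (Klf15, plus), chr17:28486100-28486399 (Fkbp5, minus) and chrX:140600473-140600772 (Tsc22d3, minus).
Foxo1: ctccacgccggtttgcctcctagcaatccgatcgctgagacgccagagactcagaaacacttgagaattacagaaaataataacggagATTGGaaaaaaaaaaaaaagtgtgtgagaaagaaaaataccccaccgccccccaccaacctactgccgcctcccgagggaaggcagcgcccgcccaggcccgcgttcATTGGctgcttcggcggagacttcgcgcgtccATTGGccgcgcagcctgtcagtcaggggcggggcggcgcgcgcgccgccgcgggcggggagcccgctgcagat
Klf15: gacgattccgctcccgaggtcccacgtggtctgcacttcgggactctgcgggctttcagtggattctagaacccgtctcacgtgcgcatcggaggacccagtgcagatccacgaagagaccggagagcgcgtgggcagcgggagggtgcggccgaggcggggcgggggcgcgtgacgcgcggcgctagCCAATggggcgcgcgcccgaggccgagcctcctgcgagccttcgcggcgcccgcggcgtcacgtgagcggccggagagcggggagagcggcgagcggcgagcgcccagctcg
Fkbp5: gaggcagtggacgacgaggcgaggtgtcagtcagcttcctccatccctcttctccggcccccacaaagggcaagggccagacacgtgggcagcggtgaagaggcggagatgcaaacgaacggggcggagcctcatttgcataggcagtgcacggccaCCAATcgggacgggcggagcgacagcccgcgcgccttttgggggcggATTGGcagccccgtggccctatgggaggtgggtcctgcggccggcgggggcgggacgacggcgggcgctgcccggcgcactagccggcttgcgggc
Tsc22d3: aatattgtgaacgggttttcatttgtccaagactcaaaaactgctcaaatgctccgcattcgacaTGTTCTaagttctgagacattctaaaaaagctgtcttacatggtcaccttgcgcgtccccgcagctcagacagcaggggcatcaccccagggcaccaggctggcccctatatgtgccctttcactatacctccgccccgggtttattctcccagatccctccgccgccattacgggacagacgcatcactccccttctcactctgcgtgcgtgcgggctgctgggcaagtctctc

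Denervation lowered most of these genes in the values as deposited. In Opg-/- muscle 6 of the 10 genes fell (Foxo4, Klf15, Cebpd, Nr3c1, Fkbp5 and Tsc22d3) and none rose, by limma on log2(value + 1) with an adjusted p under 0.05. Among all genes tested 54.9% were called in this comparison, 28.6% as higher and 26.4% as lower. With every library scaled to the same total, 3 of the 10 genes were called as higher and 3 as lower in Opg-/- muscle. In WT muscle 6 genes fell (Foxo4, Klf15, Cebpd, Nr3c1, Fkbp5 and Zbtb16) and Foxo1 rose, while Foxo3, Cebpb and Tsc22d3 did not pass, where 52.5% of all genes were called, 26.9% as higher and 25.7% as lower. The median log2 fold change of the 10 genes was -0.36 in Opg-/- and -0.49 in WT muscle, beside 0.02 and 0.00 over all genes tested. The den and sham libraries did not overlap for 4 of the 10 genes in Opg-/- muscle (40.8% of all genes) and for 6 in WT muscle (44.3%).

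**Figure D1:**
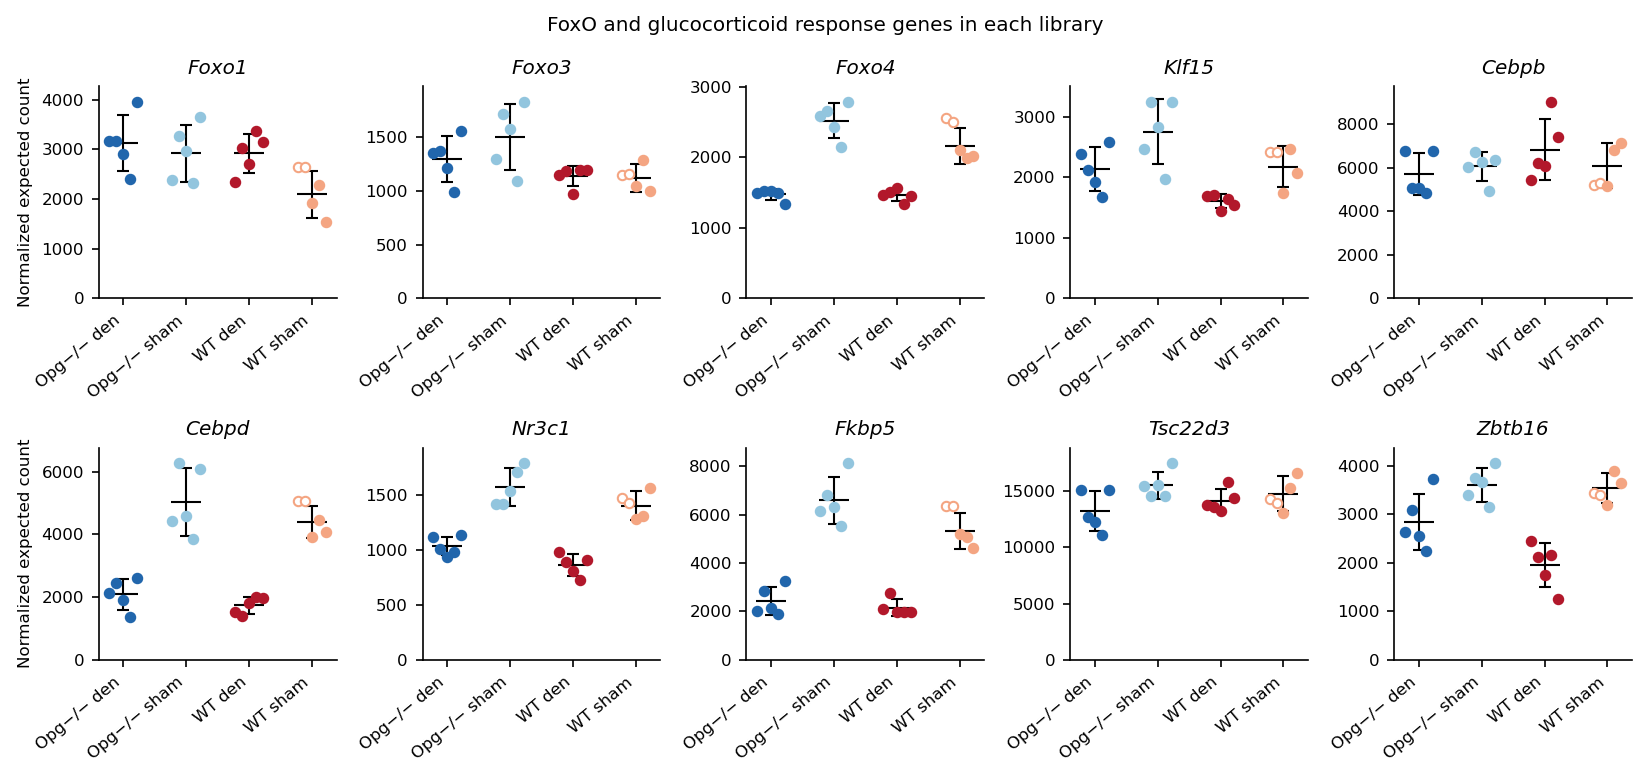
Normalized expected count of the 10 genes in each library. Points are libraries in the order of their replicate number, black lines are the group mean ± SD (n = 5, and n = 4 in WT sham, where the near-identical pair is drawn hollow and counted once), and the den points of Cebpd, Nr3c1, Fkbp5 and Foxo4 lie below all sham points of the same genotype.

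Among Nr3c1, Fkbp5, Zbtb16, Tsc22d3 and Klf15, the log2 fold change was largest in size for Fkbp5 in both genotypes. Fkbp5 (chr17:28399094-28517527, minus strand, GRCm38) encodes a co-chaperone that lowers the receptor's affinity for hormone. Fkbp5 had normalized expected counts of 2030, 2837, 2139, 1888 and 3250 in Opg-/- den muscle, against 6172, 6797, 6308, 5550 and 8128 in Opg-/- sham muscle. Every den library lay under every sham library, and Fkbp5 fell by 63.7% (log2 fold change -1.46, SE 0.15, limma adjusted p = 8.5e-08).
The Fkbp5 values of WT muscle were 2111, 2779, 1969, 1978 and 1983 in den libraries, against 6352, 6359, 5219, 5074 and 4611 in sham libraries. These groups were apart as well. Fkbp5 fell by 59.4% in WT (log2 fold change -1.30, SE 0.16, limma adjusted p = 9.9e-07). An intronic and an antisense gene within Fkbp5 were at 8.77 or less in every library.

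Nr3c1 (ENSMUSG00000024431), the receptor itself, fell in both genotypes. Its normalized expected counts were 1115, 1008, 940, 982 and 1132 in Opg-/- den muscle, against 1415, 1420, 1535, 1710 and 1789 in Opg-/- sham muscle, with no overlap. Nr3c1 fell by 34.1% there (log2 fold change -0.60, SE 0.09, limma adjusted p = 6.0e-07). The WT den libraries had 984, 887, 805, 723 and 908, against 1478, 1432, 1279, 1309 and 1568 in the WT sham libraries. These did not overlap either, and Nr3c1 fell by 38.7% (log2 fold change -0.71, SE 0.09, limma adjusted p = 1.2e-07).

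Zbtb16 (chr9:48654297-48836222, minus strand), a zinc finger repressor that glucocorticoids induce, had 2631, 3091, 2549, 2245 and 3734 in Opg-/- den muscle, against 3405, 3748, 3670, 3148 and 4056 in Opg-/- sham muscle. Here the groups overlapped through den library 5, and the log2 fold change of -0.36 (SE 0.16) missed the threshold (limma adjusted p = 0.062). Each Opg-/- den library was below the sham library of its own number. Zbtb16 passed there with the compared groups fitted alone (limma adjusted p = 0.017), without the robust option (0.031) and with same-numbered limbs fitted as a block (0.011). When every library was scaled to the same total, the change turned to 0.096 without a call (limma adjusted p = 0.66). Zbtb16 in WT muscle had 2452, 2121, 1761, 2168 and 1261 in den libraries, against 3434, 3408, 3194, 3904 and 3654 in sham libraries. No WT den library reached a WT sham library, and Zbtb16 fell by 46.1% (log2 fold change -0.89, SE 0.17, limma adjusted p = 1.7e-04).

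Tsc22d3 (chrX:140539528-140600659, minus strand) encodes GILZ, an anti-inflammatory leucine zipper protein. It ranged over 11076 to 15109 (median 12676) in Opg-/- den muscle, against 14523 to 17476 (median 15480) in Opg-/- sham muscle. Tsc22d3 fell by 15.1% there (log2 fold change -0.24, SE 0.08, limma adjusted p = 0.018), and this call turned round under equal library totals (0.22, limma adjusted p = 0.027). Den libraries 1 and 5 were inside the sham range, though each den library was below the sham library of its own number. For WT muscle the range was 13263 to 15777 (median 13785) in den libraries, against 13072 to 16651 (median 14698) in sham libraries. The WT log2 fold change was -0.06 with a 95% interval of -0.24 to 0.12 (limma adjusted p = 0.61).

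Klf15 (chr6:90462576-90475238, plus strand) is a Kruppel-like factor that the receptor induces and that drives amino acid catabolism. Klf15 had 2391, 2119, 1919, 1668 and 2590 in Opg-/- den muscle, against 2472, 3237, 2836, 1976 and 3247 in Opg-/- sham muscle. Sham libraries 1 and 4 lay within the den range, while each den library was below the sham library of its own number. Klf15 fell by 22.0% (log2 fold change -0.36, SE 0.14, limma adjusted p = 0.033).
The Klf15 values of WT muscle were 1689, 1713, 1444, 1640 and 1538 in den libraries, against 2410, 2414, 1742, 2473 and 2070 in sham libraries. The lowest sham library, number 3, lay just above the highest den library. Klf15 fell by 25.6% in WT (log2 fold change -0.43, SE 0.15, limma adjusted p = 0.019).

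The C/EBP factors are leucine zipper proteins, and glucocorticoids raise Cebpb and Cebpd in muscle. Cebpd (chr16:15887286-15891031, plus strand) had 2145, 2447, 1898, 1351 and 2608 in Opg-/- den muscle, against 4420, 6267, 4588, 3838 and 6076 in Opg-/- sham muscle. WT muscle had 1514, 1403, 1815, 1995 and 1970 in den libraries, against 5066, 5065, 3932, 4471 and 4081 in sham libraries. Den and sham libraries were apart in both genotypes. Cebpd fell by 58.8% in Opg-/- muscle (log2 fold change -1.28, SE 0.18, limma adjusted p = 7.6e-06). It fell by 60.5% in WT (log2 fold change -1.34, SE 0.19, limma adjusted p = 9.4e-06). Libraries were not stranded, and Spidr, which overlaps Cebpd on the other strand, was at 19.96 to 98.0.
Cebpb (chr2:167688915-167690418, plus strand) ranged over 4836 to 6757 (median 5080) in Opg-/- den muscle, against 4921 to 6715 (median 6263) in Opg-/- sham muscle. Cebpb in WT muscle ranged over 5442 to 9020 (median 6201) in den libraries, against 5169 to 7149 (median 6020) in sham libraries. The groups overlapped in both genotypes, with a log2 fold change of -0.10 (95% interval -0.39 to 0.20) in Opg-/- muscle and one of 0.16 (-0.16 to 0.47) in WT. Tmem189, which shares 908 bases with Cebpb on the other strand, was at 453 to 953.

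Of the 3 FoxO genes, Foxo4 fell in both genotypes, Foxo1 rose in WT and Foxo3 passed the test in neither. Foxo1 (chr3:52268336-52353221, plus strand) had 3169, 3162, 2898, 2404 and 3959 in Opg-/- den muscle, against 2387, 3261, 2965, 2331 and 3660 in Opg-/- sham muscle. The ranges lay over each other, with a log2 fold change of 0.10 and a 95% interval of -0.25 to 0.45.
Foxo1 in WT muscle had 2344, 3037, 2698, 3362 and 3143 in den libraries, against 2642, 2651, 1916, 2286 and 1545 in sham libraries. Den libraries 2 to 5 were above every sham library and den library 1 was not. Foxo1 rose 1.41-fold in WT (log2 fold change 0.49, SE 0.17, limma adjusted p = 0.025). An antisense gene at Foxo1, Gm20402, was at 57.1 to 185.

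Foxo4 (chrX:101254528-101260873, plus strand) had 1497, 1528, 1522, 1495 and 1338 in Opg-/- den muscle, against 2577, 2654, 2435, 2141 and 2786 in Opg-/- sham muscle. WT den libraries had 1467, 1502, 1564, 1331 and 1446, against 2563, 2502, 2102, 1987 and 2011 in WT sham libraries. In both genotypes each den library was below each sham library. Foxo4 fell by 41.2% in Opg-/- muscle (log2 fold change -0.77, SE 0.08, limma adjusted p = 6.6e-10) and fell by 32.0% in WT (log2 fold change -0.56, SE 0.08, limma adjusted p = 8.0e-07).
Foxo3 (chr10:42181841-42276755, minus strand) ranged over 995 to 1562 (median 1353) in Opg-/- den muscle, against 1093 to 1832 (median 1579) in Opg-/- sham muscle. The WT range was 973 to 1196 (median 1186) in den libraries, against 1004 to 1288 (median 1098) in sham libraries. Foxo3 had log2 fold changes of -0.20 (95% interval -0.47 to 0.07) in Opg-/- muscle and 0.03 (-0.26 to 0.31) in WT, and neither passed the test. With same-numbered limbs fitted as a block, Foxo3 did pass in Opg-/- muscle (-0.20, limma adjusted p = 0.029). With every library scaled to the same total, its change there turned to 0.25 without a call (limma adjusted p = 0.11).

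**Figure D2:**
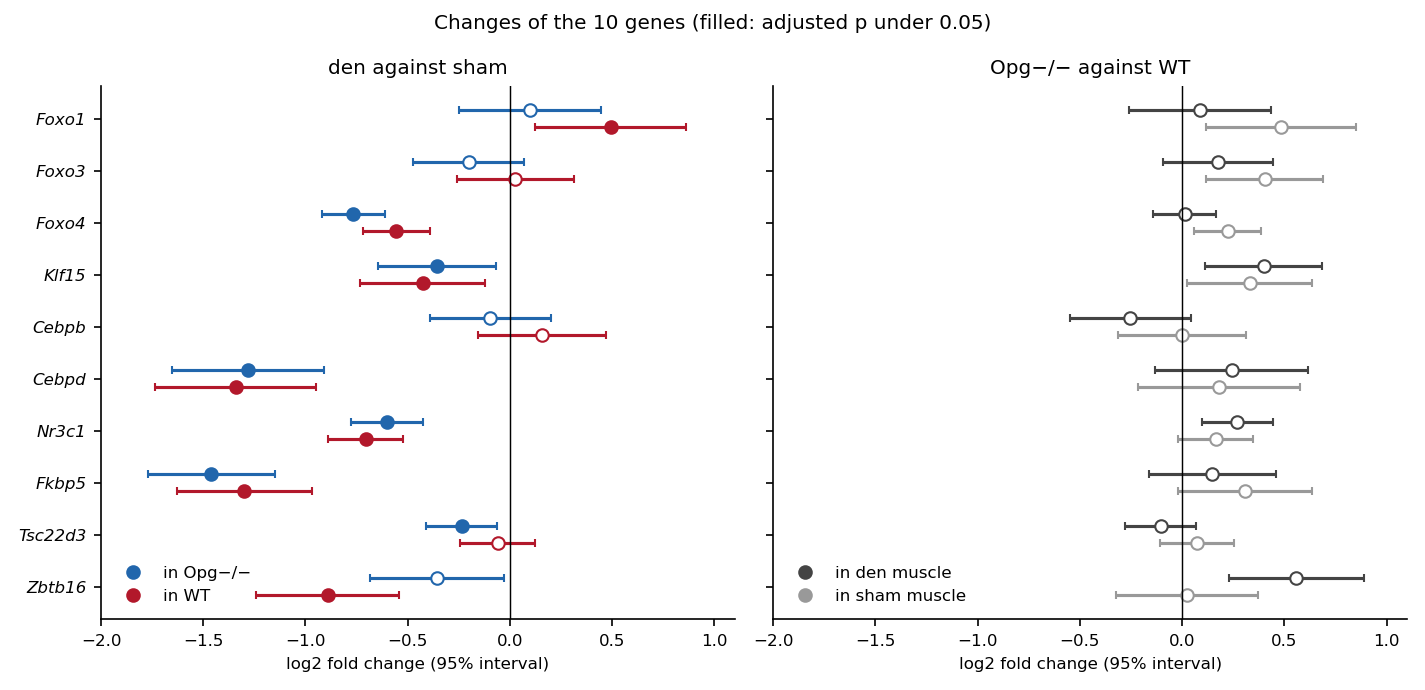
log2 fold change of each gene with its 95% interval, den against sham in each genotype (left) and Opg-/- against WT in each limb (right). Filled circles passed an adjusted p under 0.05: 6 in Opg-/- and 7 in WT muscle on the left, and 0 on the right.

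The calls of Foxo1, Klf15 and Tsc22d3 were close to the threshold, and leaving out 1 library could end them while the direction held. In Opg-/- muscle Klf15 missed the threshold without den library 2, 3 or 4 or sham library 2, 3 or 5 (log2 fold changes of -0.36 to -0.27, limma adjusted p = 0.052 to 0.091). Tsc22d3 missed it there without den library 3 or 4 or sham library 5 (-0.21 to -0.18, adjusted p = 0.051 to 0.084). Foxo1 in WT missed it without WT den library 4 or 5 or WT sham library 3 or 5 (0.35 to 0.46, adjusted p = 0.051 to 0.094), and Klf15 in WT without WT sham library 4 (-0.36, adjusted p = 0.066). The values of a library summed to 14142249 to 15931124 in den and to 17865929 to 22056156 in sham muscle. When every library was scaled to the same total, the median of all genes moved up by 0.40 in Opg-/- and 0.27 in WT muscle. Under that scaling Tsc22d3 was called as higher in Opg-/- den muscle, the opposite of the call above (log2 fold change 0.22, limma adjusted p = 0.027, and -0.20 relative to the median gene). Foxo1 (0.55, 0.0044) and Cebpb (0.36, 0.036) were called as higher there too, as were Foxo1 (0.80, 3.8e-04), Cebpb (0.46, 0.014) and Tsc22d3 (0.25, 0.021) in WT den muscle. Without a call, Klf15 in Opg-/- muscle turned to 0.09, Zbtb16 to 0.096 and Foxo3 to 0.25. Relative to the median gene these were -0.32, -0.32 and -0.17. Nr3c1 in Opg-/- muscle (-0.15, limma adjusted p = 0.22) and Klf15 in WT (-0.12, 0.51) missed the threshold under it. Foxo4, Cebpd and Fkbp5 remained called as lower in both genotypes.

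The order of the group means was the same for Foxo4, Klf15, Cebpd, Nr3c1, Fkbp5 and Zbtb16, namely Opg-/- sham, WT sham, Opg-/- den and WT den in falling order. For Foxo4, Cebpd, Nr3c1 and Fkbp5 the libraries of WT sham and Opg-/- den, the middle neighbours, did not overlap, while those of the same limb did. The highest group mean was 3.05 times the lowest for Fkbp5, 2.90 times for Cebpd and 1.17 times for Tsc22d3.

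Loss of Opg changed none of the 10 genes past the threshold. In den muscle 0 genes passed by limma (0.0613% of all genes did) and 0 by limma voom, and 3 had an unadjusted p under 0.05 (6.89% of all genes). These were Zbtb16, Nr3c1 and Klf15, all of them with higher means in Opg-/- muscle. Zbtb16 averaged 2850 ± 580 in Opg-/- den and 1953 ± 458 in WT den muscle (SD, n = 5 each), a log2 fold change of 0.56 (SE 0.16, limma adjusted p = 0.36). All but 1 of its 5 Opg-/- den libraries exceeded the highest WT den library (2452), and Opg-/- den library 4 (2245) did not. Nr3c1 had a log2 fold change of 0.27 (SE 0.09, limma adjusted p = 0.41) and Klf15 one of 0.40 (SE 0.14, limma adjusted p = 0.52).

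In sham muscle 0 genes passed (0.106% of all genes did) and 0 by limma voom, and 4 had an unadjusted p under 0.05 (12% of all genes): Foxo1, Foxo3, Foxo4 and Klf15. Foxo1 averaged 2921 ± 569 in Opg-/- sham (SD, n = 5) and 2098 ± 475 in WT sham muscle (SD, n = 4), a log2 fold change of 0.48 (SE 0.17, limma adjusted p = 0.30). Foxo3 averaged 1504 ± 305 in Opg-/- sham and 1122 ± 127 in WT sham muscle, a log2 fold change of 0.40 (SE 0.14, limma adjusted p = 0.27). The log2 fold changes of Foxo4 and Klf15 were 0.22 and 0.33 (limma adjusted p = 0.27 and 0.39), and 0 of the 10 genes had groups that did not overlap, where 3.01% of all genes did in sham and 1.47% in den muscle. Cebpb, at a log2 fold change of 0.00 in sham muscle, had a 95% interval of -0.31 to 0.31.

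Whether the response to denervation differed between genotypes was tested as an interaction. It passed for 0 of the 10 genes by limma (0.00557% of all genes passed) and 0 by limma voom, and 1 gene had an unadjusted p under 0.05 (6.96% of all genes). That gene was Zbtb16, whose den to sham log2 fold change was 0.53 higher in Opg-/- than in WT muscle (SE 0.23, 95% interval 0.06 to 1.01, limma adjusted p = 0.70). Foxo1, called in WT alone, had a difference of -0.39 (95% interval -0.90 to 0.11, limma adjusted p = 0.74). Its den response in WT and its difference between genotypes in sham muscle share the WT sham libraries. The difference for Fkbp5 was -0.16 (-0.61 to 0.29) and for Cebpd 0.06 (-0.48 to 0.60).

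Within groups the libraries deviated together for several of these genes. In Opg-/- muscle the libraries numbered 5 were the highest of their group in both limbs for 7 of the 10 genes, and those numbered 4 were the lowest in both limbs for 8. Over 11409 genes with a mean log2(value + 1) of at least 5, the same held for 7.41% and 5.40%. The labels do not say that a number marks a mouse. In WT muscle no number was highest in both limbs for more than 1 gene or lowest for more than 2.

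**Figure D3:**
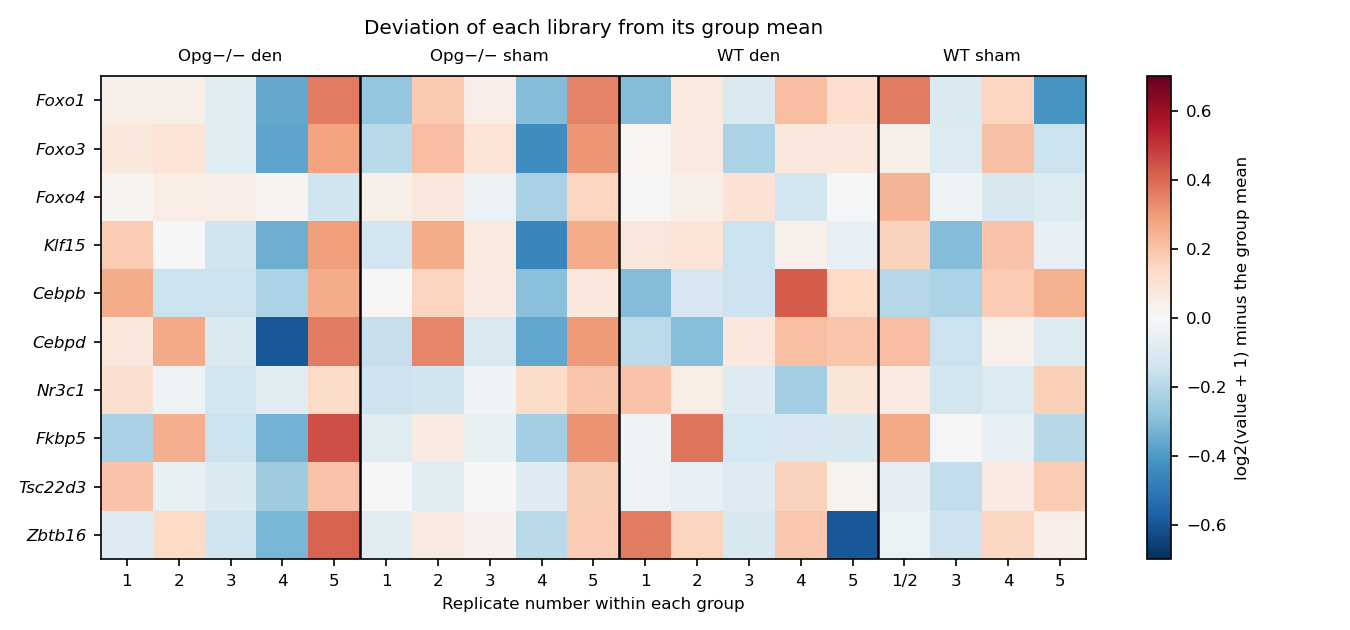
Deviation of each library from its group mean, in log2(value + 1), for the 10 genes (rows) in the 19 libraries (columns, WT sham 1 and 2 averaged). Red is above and blue below the mean, and in both Opg-/- groups the column of library 5 is mostly red and that of library 4 mostly blue.

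Over the 19 libraries, after each group mean was subtracted, the closest of the 45 pairs was Foxo3 with Klf15 (Pearson r = 0.92, a description without a test, since libraries share a scaling and paired limbs may share a mouse). Foxo1 with Foxo3 had r = 0.82 and Cebpb with Tsc22d3 r = 0.81. Nr3c1 stood apart, with r between -0.09 and 0.38 to the other 9 genes, and so did Foxo4, with r between -0.29 and 0.33. Among 11408 other genes, that most like Foxo1 was Pdk4 (r = 0.88), the kinase that shuts down pyruvate dehydrogenase. The gene most like Klf15 after Foxo3 was Glul, glutamine synthetase (r = 0.90). Cebpd was closest to Rnf26 and Klhl38 (both r = 0.90), Foxo4 to Nadk2 (0.87), Nr3c1 to Arid4a (0.87) and Yy1 (0.86), Fkbp5 to Tfdp2 and Pcnt (both 0.84), Zbtb16 to Tigd5 (0.87), Cebpb to Zfyve27 and Arl4d (both 0.87) and Tsc22d3 to Srsf7 (0.86).

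Of 12 upstream regulators of FoxO, 4 rose and 6 fell in Opg-/- muscle, and 5 rose and 6 fell in WT muscle, with median log2 fold changes of -0.12 and -0.20. Beside this list and those below, 28.6% of all genes tested were called as higher and 26.4% as lower in Opg-/- muscle. In WT muscle these shares were 26.9% and 25.7%, and the all-gene medians were 0.02 (Opg-/-) and -0.002 (WT). The kinases Akt1 and Akt2 rose. Akt1 averaged 5215 ± 314 in Opg-/- den and 1173 ± 116 in Opg-/- sham muscle, and its log2 fold changes were 2.16 (Opg-/-) and 2.23 (WT). Akt2 rose by 1.36 (Opg-/-) and 1.55 (WT) on the same scale, and Mdm2, a ubiquitin ligase, by 1.502 and 1.49. Prkaa2, a catalytic subunit of AMP-activated kinase, fell by 1.02 in Opg-/- and fell by 1.03 in WT muscle.

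Of 28 FoxO target genes in muscle, 13 rose and 10 fell in Opg-/- muscle, and 12 rose and 6 fell in WT muscle, with medians of 0.11 and 0.14. Gadd45a, a growth arrest and DNA damage protein, averaged 21757 ± 2098 in Opg-/- den and 841 ± 165 in Opg-/- sham muscle. Its log2 fold change was 4.71 in Opg-/- and 5.01 in WT muscle. Ctsl, the lysosomal protease cathepsin L, rose by 2.39 and 2.31 and Fbxo30, a ubiquitin ligase, by 1.78 and 1.61 on the log2 scale in Opg-/- and WT muscle. Txnip, which binds thioredoxin, fell by 1.37 in Opg-/- and fell by 1.42 in WT muscle.

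Of 22 glucocorticoid target genes, 5 rose and 13 fell in Opg-/- muscle, and 8 rose and 12 fell in WT muscle, with medians of -0.80 and -0.85. Of all genes tested, 28.6% rose and 26.4% fell in Opg-/- muscle, and 26.9% rose and 25.7% fell in WT muscle. Dusp1, a phosphatase of MAP kinases, averaged 507 ± 125 in Opg-/- den and 3114 ± 1650 in Opg-/- sham muscle. Its log2 fold change was -2.49 in Opg-/- and -2.85 in WT muscle, and that of Mstn, the growth inhibitor myostatin, -2.70 and -2.34. In the other direction Cdkn1a, the cell cycle inhibitor p21, rose by 3.23 in Opg-/- and 3.38 in WT muscle, and Mt2, a metallothionein, by 3.15 and 3.35.

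Of 12 genes of the receptor machinery, 6 rose and 4 fell in Opg-/- muscle, and 5 rose and 3 fell in WT muscle, with medians of 0.20 and 0.10. The chaperone genes Hsp90ab1 and Hsp90aa1 rose by 1.30 and 1.14 in Opg-/- and by 1.42 and 1.15 in WT muscle. Hsd11b2, whose enzyme inactivates corticosterone, was low and averaged 10.5 ± 3.71 in Opg-/- den and 1.23 ± 1.23 in Opg-/- sham muscle, a log2 fold change of 2.50, with one of 1.33 in WT muscle (limma adjusted p = 0.042). Nr3c2, the mineralocorticoid receptor, fell by 0.90 in Opg-/- and fell by 0.64 in WT muscle.

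Of 9 KLF15 target genes of amino acid catabolism, 7 fell and 1 rose in Opg-/- muscle, and 6 fell and 1 rose in WT muscle, with medians of -0.87 and -0.71. Gpt2, the mitochondrial alanine aminotransferase, averaged 2442 ± 300.5 in Opg-/- den and 14008 ± 1336 in Opg-/- sham muscle, a log2 fold change of -2.52, and in WT muscle one of -2.18. Acadm, an acyl-CoA dehydrogenase of fat oxidation, had -1.75 in Opg-/- and -1.65 in WT muscle on that scale, Gpt had -1.67 and -1.52, and Prodh, proline dehydrogenase, had -1.46 and -1.45. Of 4 other C/EBP genes, Cebpg had log2 fold changes of -1.05 in Opg-/- and -0.998 in WT muscle and passed in both, and Ddit3, the stress factor CHOP, had log2 fold changes of -0.37 (limma adjusted p = 0.018) in Opg-/- and -0.18 (0.31) in WT muscle. In the comparisons of genotypes and the interaction, no gene of these 6 lists passed by limma.

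**Figure D4:**
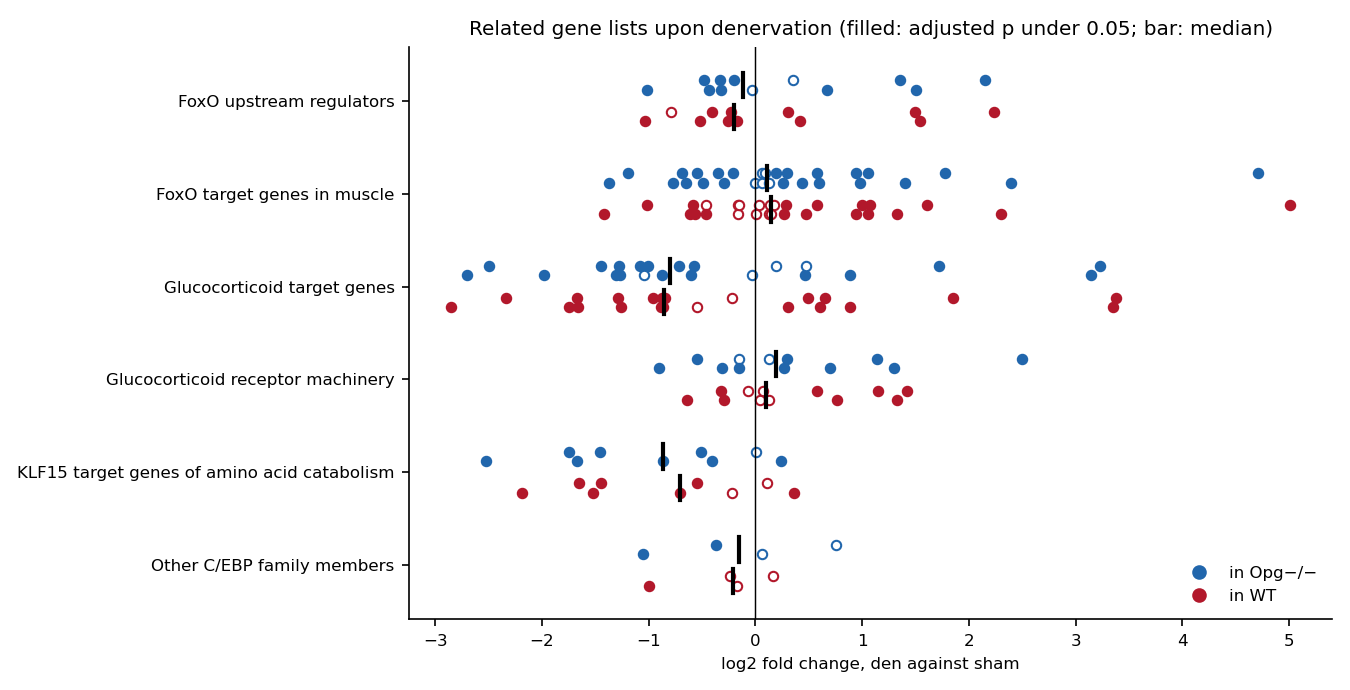
log2 fold change of each gene of the 6 related lists, den against sham, in Opg-/- (blue) and WT muscle (red). Filled circles passed an adjusted p under 0.05 and black bars are medians, which lie at -0.80 and -0.85 for the 22 glucocorticoid target genes and at 0.11 and 0.14 for the 28 FoxO target genes.

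Of 8 skeletal muscle fibre markers, 7 fell and 1 rose in Opg-/- muscle, and 5 fell and 1 rose in WT muscle. Markers of other cells moved with denervation too, and in whole muscle fewer cells of a type and less RNA per cell cannot be told apart. Macrophage markers rose for 10 of 10 genes in Opg-/- and for 5 of 10 in WT muscle. Their summed values were 2611 to 6197 in Opg-/- den and 1198 to 2150 in Opg-/- sham muscle, and 2603 to 5925 in WT den and 2079 to 3164 in WT sham muscle. Adipocyte markers fell for 1 of 7 genes in Opg-/- and 6 of 7 in WT muscle, with sums of 2199 to 2751 in Opg-/- den and 3357 to 5247 in Opg-/- sham muscle, and of 1863 to 2554 in WT den and 3902 to 4731 in WT sham muscle. All 6 endothelial markers fell in both genotypes, with sums of 2343 to 3175 in Opg-/- den and 5139 to 6906 in Opg-/- sham muscle, and of 2373 to 3294 in WT den and 5563 to 6011 in WT sham muscle. All 5 smooth muscle markers fell as well. Among all genes tested, 28.6% were called as higher and 26.4% as lower in Opg-/- muscle, and 26.9% and 25.7% in WT muscle. No marker of these 5 lists passed between genotypes in either limb, or in the interaction. Unlike counts of macrophage and adipocyte markers do not by themselves show a response that differs between genotypes. In the interaction 0.00557% of all genes passed. The median interaction was 0.69 for macrophage and 0.98 for adipocyte markers, beside -0.01 over all genes tested. In sham muscle the median difference of Opg-/- against WT was -0.76 and -0.43, beside 0.02 over all genes. Such differences of a whole list were not tested. No marker of these 5 lists was at 0 throughout a group, and their part in the changes of the 10 genes was not tested. Of 7 fibroblast markers, 3 fell and 1 rose in Opg-/- muscle, and 4 fell in WT muscle. Schwann cell markers fell for 2 of 6 genes in both genotypes, and satellite cell markers for 3 of 5 in Opg-/- and 1 of 5 in WT muscle. Of 4 neutrophil markers tested, 1 rose in each genotype, and the neutrophil marker Cxcr2 was at 0 throughout Opg-/- sham muscle.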

How the data were processed

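RNA from 20 gastrocnemius samples was sequenced by the authors in non-stranded libraries, mapped with STAR to mm10 and counted per gene with RSEM (versions not given in the sources used here). The deposited signal values, called normalized expected counts here, are estimated read numbers from RSEM after division by a scaling factor that differs between libraries. Division by the value of 1 read gave whole numbers for 87.2% to 88.3% of the values above 0 (within 0.01 reads), so no count model was the main test. Columns were assigned to groups by genotype, limb and number in their names.

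Values were tested with limma 3.58.1 (R 4.3.3, trend and robust) after log2(value + 1), with the 4 groups fitted together over 17948 genes that reached a value of 1 in 4 or more libraries. Benjamini-Hochberg adjustment ran over all of them, with calls at an adjusted p under 0.05, and fold changes are on that log2 scale. Nothing says that libraries of a group came from separate mice, so p-values measure the spread between these samples. The procedure was tested on simulated data with independent libraries in which few genes changed. Such data do not cover changes as wide as those here, paired limbs or the choice of scaling.

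All 10 members were named, and of each list up to 4 called genes with the largest change. Members and lists were chosen with earlier results of these data known. Coordinates are of GENCODE M21 (GRCm38). Alternatives were other pseudocounts (0.1), filters, scalings, fits, voom on recovered reads, a replicate block and each library left out. Leaving out both libraries of the near-identical pair was chosen after seeing the data.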

Additional observations from a re-analysis of the deposited data

Results flagged for a closer look

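Of 40 groups of 4 or 5 libraries, 3 held a library far from the others by Dixon's gap test at the 95% level, which flags about 1 in 20 groups by chance. Foxo3 in WT den library 3 was at 973.0, with the next library at 1149.5. Foxo4 in Opg-/- den library 5 was at 1338.4, with the next at 1494.7. Fkbp5 in WT den library 2 was at 2778.5, with the next at 2111.0.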

How the results depend on the processing

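Over 50 changes of single genes and 1540 re-computed values, 1478 kept their direction and their side of the threshold. Without a change of sign, 18 lost the call and 13 gained one. The other 31 changed sign, and 2 of these had been called in the main fit. Called after the change of sign were Cebpb in Opg-/- muscle and Tsc22d3 in both genotypes, each with equal library totals. Causes were not tested. With equal library totals, 3 genes were called as higher and 3 as lower in Opg-/- muscle, and 3 as higher in WT muscle. In Opg-/- muscle Foxo1 was then at 0.55, Foxo3 at 0.25, Klf15 at 0.094, Cebpb at 0.36, Nr3c1 at -0.15 (adjusted p = 0.22), Tsc22d3 at 0.22 and Zbtb16 at 0.096. In WT muscle Klf15 was at -0.12 (adjusted p = 0.51), Cebpb at 0.46 (0.014) and Tsc22d3 at 0.25 (0.021), and in sham muscle the difference of genotypes was -0.066 for Tsc22d3 and -0.12 for Zbtb16. Among all genes, 8522 were then called higher and 2296 lower in Opg-/- muscle, against 5125 and 4736 as deposited, and 7034 and 2724 in WT muscle, against 4827 and 4604. With upper-quartile scaling Foxo3 was at -0.052 in WT, and Zbtb16 at -0.0055 between genotypes in sham muscle.

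Same-numbered limbs had correlated deviations of 0.07 to 0.19 in Opg-/- and -0.17 to 0.16 in WT muscle, and correlated best with their own number in 5 of 5 and 2 of 5 cases, a hint of pairing in Opg-/- muscle. The numbers were not taken as pairs, because the labels do not say what a number marks and not every correlation was above 0.1. With the replicate block, 8 genes were called as lower in Opg-/- muscle, where Foxo3 (-0.20, adjusted p = 0.029) and Zbtb16 (-0.36, adjusted p = 0.011) passed. Between genotypes in sham muscle the block gave 0.0084 for Cebpb and -0.0059 for Zbtb16, and -0.012 for the interaction of Cebpd, and it changed no other call.

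Zbtb16 in Opg-/- muscle also passed without a filter (0.0497), with a stricter filter (0.049), with the compared groups alone (0.017), with upper-quartile scaling (0.036) and with limma without its robust option (0.031), and Klf15 there missed with the compared groups alone (0.076). With the near-identical pair separate, Cebpb was at 0.040 between genotypes in sham muscle. Without that pair Klf15 in WT missed (-0.37, 0.063) and the interaction of Cebpd was -0.0095.

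With each library left out, 4 to 7 genes were called in Opg-/- muscle and 6 to 7 in WT muscle (0 to 1 as higher, 5 to 6 as lower). Ranges that crossed 0 were -0.025 to 0.094 for Foxo3 in WT, -0.0017 to 0.18 for Foxo1 and -0.019 to 0.049 for Foxo4 between genotypes in den muscle, -0.074 to 0.082 for Cebpb and -0.025 to 0.072 for Zbtb16 between genotypes in sham muscle, and -0.045 to 0.17 for Klf15 and -0.030 to 0.21 for Cebpd in the interaction.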

Other observations

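Further genes of the lists, chosen after their values were seen, are widely used readouts of the FoxO and glucocorticoid arms. Fbxo32, the ubiquitin ligase atrogin-1, averaged 43092 ± 6824 in Opg-/- den and 22970 ± 6996 in Opg-/- sham muscle (SD, n = 5 each), with log2 fold changes of 0.94 (Opg-/-) and 1.05 (WT). Trim63, the ubiquitin ligase MuRF1, rose by 0.59 in Opg-/- and by 0.995 in WT muscle (limma adjusted p = 0.027 and 0.0014). Pdk4, also a FoxO target, fell by 0.55 in Opg-/- and fell by 0.46 in WT muscle. Glul, a glucocorticoid target, had log2 fold changes of -1.002 in Opg-/- and -0.86 in WT muscle. Foxo1, whose deviations within groups were most like those of Pdk4, rose in WT muscle while Pdk4 fell there. That rise of Foxo1 was close to the threshold (limma adjusted p = 0.025), and leaving out 1 library could end the call.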
